A study of Mus musculus with 18 samples.

Results

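The mismatch repair genes examined here were Msh3, Msh6, Mlh3, Pms1, Pms2, Fan1, Lig1 and Pold1, 8 of the 55421 genes counted in striatal RNA. They were taken by gene symbol from the Ensembl identifiers of the count table, and all 8 had enough reads to be among the 20914 genes tested. Each of 18 libraries came from the striatum of a single C57BL/6 mouse of 12 to 14 months of age. The groups were 5 WT mice, 5 zQ175 mice, 3 CK2a'(+/-) mice and 5 zQ175:CK2a'(+/-) mice. zQ175 is a heterozygous Huntington's disease (HD) knock-in in which the mouse huntingtin gene carries a long CAG repeat in every cell, and CK2a'(+/-) mice lack a single allele of Csnk2a2, the gene of the catalytic kinase subunit CK2a', also in every cell. zQ175:CK2a'(+/-) mice carry both alleles, and WT mice carry neither. All mice were perfused before the striatum was frozen.

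HD is caused by a CAG repeat in the huntingtin gene that keeps growing in somatic cells, most of all in striatal neurons. In mismatch repair, MutS proteins recognise mispaired bases or small extruded loops, MutL proteins are recruited and nick a strand, and a polymerase and a ligase refill and seal the gap. Loops of repeated CAG units are handled by the same proteins, and in this process some members of the pathway lengthen the repeat while others, such as the nuclease Fan1, restrain it. Variants near several of the human genes are known to shift the age at which HD begins.

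Csnk2a2, which checks the labels of the CK2a' allele but not those of zQ175, had 31.6 ± 2.26 CPM (TMM-normalized read counts, each expressed for a library of equal size, mean ± SD, n = 5) in WT and 34.98 ± 2.29 (n = 5) in zQ175 mice, against 16.7 ± 1.78 (n = 3) in CK2a'(+/-) and 17.6 ± 1.64 (n = 5) in zQ175:CK2a'(+/-) mice, without overlap between mice with and without the CK2a' deletion. Total counts ranged from 13612381 to 22702547 per library. The 8 markers of striatal projection neurons were all detected, with a summed level of 2329 to 5553 CPM in WT, 1253 to 2526 in zQ175, 3875 to 5471 in CK2a'(+/-) and 2073 to 2903 CPM in zQ175:CK2a'(+/-) mice. In such bulk samples, fewer cells of a type and less RNA per cell cannot be told apart. The 5 markers of cortical excitatory neurons summed to 52.8 to 287 CPM in zQ175 mice and 22.8 to 49.8 CPM in WT mice. Ttr, a choroid plexus gene, lay between 908 and 2904 CPM in 4 libraries (WT replicates 1 and 3, CK2a'(+/-) replicate 1 and zQ175:CK2a'(+/-) replicate 2) and at 10.5 CPM or below in the others. The female-specific RNA Xist was over 100 CPM in 4 of 5 WT, 2 of 5 zQ175, 1 of 3 CK2a'(+/-) and 4 of 5 zQ175:CK2a'(+/-) libraries, so the groups differed in their share of female mice.

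All 8 repair genes were transcribed in the adult striatum at low to moderate levels. Per kilobase of exon (RPKM, computed here from CPM and the deposited gene length), the mean over the 18 mice was 4.27 for Mlh3, 4.19 for Msh6, 3.41 for Msh3, 2.70 for Fan1, 2.103 for Pms1, 2.03 for Lig1, 1.65 for Pms2 and 1.28 for Pold1. The genes thus lay between the 33.9 percentile (Pold1) and the 61.6 percentile (Mlh3) of the genes tested. The ranges of every pair of neighbours in this order overlapped. Mlh3 exceeded Msh6 in 11 of 18 mice and Pms1 exceeded Lig1 in 10 of 18, while Msh6 exceeded Msh3 in 17 of 18. The other neighbours kept their order in 15 or 16 of the 18 mice.

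**Figure D1:**
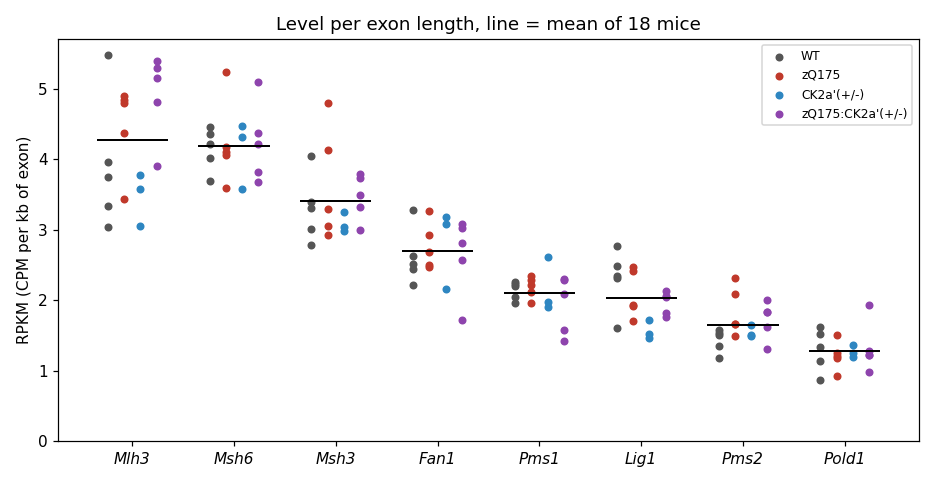
Level of each repair gene in RPKM (CPM per kilobase of exon, linear axis) in the striatum of 18 mice, with 1 point per mouse coloured by genotype and a line at the mean. The means fall from 4.27 for Mlh3 to 1.28 for Pold1, and the ranges of neighbouring genes overlap.

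Msh3, the MutS protein whose complex binds small loops and is a driver of CAG expansion, spans GRCm38 chromosome 13, 92211872 to 92355003, on the minus strand, with 27 exon blocks. It had 38.2, 45.6, 31.3, 37.3 and 33.9 CPM in WT mice and 34.4, 53.9, 37.1, 33.0 and 46.5 CPM in zQ175 mice. Its level was 36.6, 34.3 and 33.6 CPM in CK2a'(+/-) mice and 42.0, 39.4, 33.7, 37.5 and 42.7 CPM in zQ175:CK2a'(+/-) mice. The 4 groups overlapped, and zQ175 replicate 2 was the highest of all. Msh3 had the most reads of the 8 genes, 460 to 931 per library, so that counting error was at most 3.92% of a group's mean count per library. Its log2 fold change was 0.14 (SE 0.13, adjusted p = 0.680 by edgeR) in zQ175 against WT mice. It was 0.0049 without zQ175 replicate 2, 0.21 without WT replicate 2 and 0.073 without the 4 libraries high in Ttr.

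Msh6, whose MutS complex binds single mispaired bases (GRCm38 chromosome 17, 87975062 to 87990892, plus strand, 11 exon blocks), was the steadiest of the 8 genes. Its biological coefficient of variation in edgeR was 0.137, against 0.217 for Pold1 and a median of 0.230 over all genes tested. It had 18.03 ± 1.32 CPM (SD, n = 5) in WT, 18.4 ± 2.63 (n = 5) in zQ175, 17.9 ± 2.08 (n = 3) in CK2a'(+/-) and 18.4 ± 2.44 CPM (n = 5) in zQ175:CK2a'(+/-) mice. The group means thus differed by less than the SD within any group. In zQ175 against WT mice the log2 fold change was 0.03 with a 95% interval from -0.21 to 0.28. The ratio of Msh3 to Msh6 in RPKM was 0.826 ± 0.178 (SD, n = 18) and ranged from 0.582 to 1.33. It was 0.802 ± 0.128 in WT and 0.885 ± 0.289 in zQ175 mice, a difference smaller than the spread between mice.

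**Figure D2:**
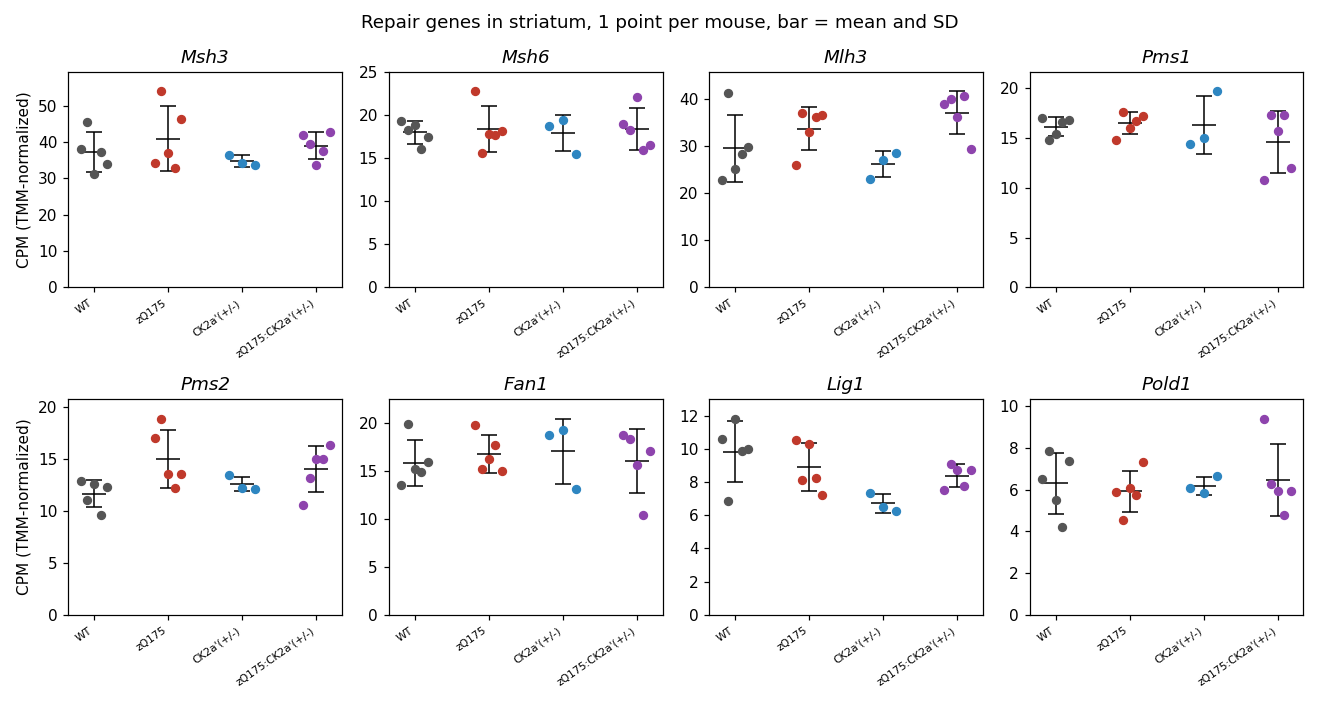
Level of each of the 8 repair genes in CPM (linear axis from 0) in WT, zQ175, CK2a'(+/-) and zQ175:CK2a'(+/-) striatum, with 1 point per mouse and a bar at the mean with its SD. Mlh3 was lowest on average in CK2a'(+/-) mice (23.1 to 28.6 CPM) and highest on average in zQ175:CK2a'(+/-) mice (29.5 to 40.8 CPM), and Lig1 was lowest on average in CK2a'(+/-) mice.

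Mlh3, a MutL nuclease that mice need for somatic CAG expansion, was the single repair gene of the 8 that passed a test of the zQ175 allele. It spans GRCm38 chromosome 12, 85234520 to 85270599, on the minus strand, with 13 exon blocks and no exon shared with a neighbour. In WT mice it had 22.9, 41.4, 25.3, 28.3 and 29.9 CPM, and in zQ175 mice 25.96, 37.0, 33.0, 36.2 and 36.6 CPM. These groups overlapped, since WT replicate 2 was the highest of all 18 libraries and zQ175 replicate 1 lay among the WT mice. In CK2a'(+/-) mice it had 23.1, 27.0 and 28.6 CPM, and in zQ175:CK2a'(+/-) mice 39.0, 40.0, 36.3, 40.8 and 29.5 CPM. All 5 mice with the zQ175 allele lay above the 3 without it, a separation that 8.34% of all genes tested showed in this comparison. Lig1, described below, was the only other gene of the 8 that separated there.

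When the zQ175 effect was averaged over both CK2a' backgrounds, which uses all 18 mice, Mlh3 rose by a log2 fold change of 0.35 (SE 0.11, 95% interval 0.12 to 0.57, adjusted p = 0.0901 by edgeR), a 1.27-fold rise. It was 1 of the 8 genes to pass the false discovery rate of 0.1, while 4.9% of all genes passed in this comparison and 2.11% passed as higher. An unadjusted p under 0.05 was reached by 2 of the 8 (Mlh3 and Pms2) and by 16.2% of all genes. DESeq2 gave an adjusted p of 0.0388 for Mlh3 and also called 1 of the 8. In each background on its own, Mlh3 did not pass in edgeR. Its log2 fold change was 0.19 (SE 0.14, adjusted p = 0.585) in zQ175 against WT mice and 0.50 (SE 0.16, adjusted p = 0.262) in zQ175:CK2a'(+/-) against CK2a'(+/-) mice. With only zQ175:CK2a'(+/-) and CK2a'(+/-) mice in the fit, the adjusted p was 0.0669, which passes, and that fit called 461 of 18974 genes where the fit of all groups called 124 of 20914. The difference between the 2 backgrounds, tested as an interaction, was 0.31 (SE 0.21, adjusted p = 0.936), and 0.15 without WT replicate 2.

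The call for Mlh3 depended on single libraries. It was lost when any 1 of 15 of the 18 libraries was left out, with adjusted p-values up to 0.198, although the fold change stayed between 0.29 and 0.41 on the log2 scale. The fits that kept it were those without WT replicate 2 (adjusted p = 0.0183), zQ175 replicate 1 (0.0445) and zQ175:CK2a'(+/-) replicate 5 (0.0712). It was also lost without the 4 libraries that were high in Ttr, where the log2 fold change was 0.21 and the adjusted p was 0.516, with 126 genes called in place of 1024. Without them, Mlh3 was at 0.024 in zQ175 against WT mice and at 0.39 in zQ175:CK2a'(+/-) against CK2a'(+/-) mice. Leaving out 1 library gave 0.096 to 0.33 in zQ175 against WT mice. Of these 4 libraries, the 3 without the zQ175 allele were the 3 lowest of all 18 in Mlh3. The 3 choroid plexus markers were detected in each group, with summed levels of 4.64 to 2032 CPM in WT, 4.30 to 15.4 in zQ175, 7.74 to 948 in CK2a'(+/-) and 4.84 to 3020 CPM in zQ175:CK2a'(+/-) mice. Their part in the result was not tested beyond this fit. With Xist as a covariate the log2 fold change was 0.30 (adjusted p = 0.0793), and the difference between the backgrounds was 0.07.

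**Figure D3:**
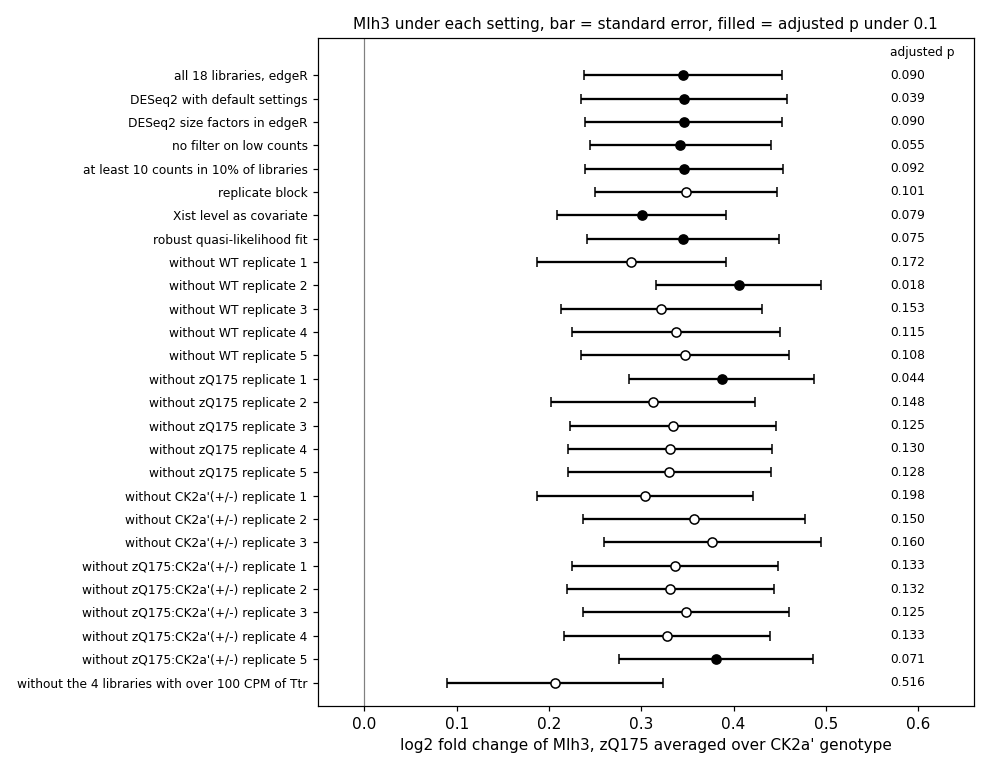
Log2 fold change of Mlh3 for the zQ175 effect averaged over CK2a' genotype, under each way of processing, with the standard error as a bar and the adjusted p at the right. Filled points have an adjusted p under 0.1, and all points are above 0, from 0.21 without the 4 libraries high in Ttr to 0.41 without WT replicate 2.

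Pms2, the MutL protein of general mismatch repair (GRCm38 chromosome 5, 143909964 to 143933968, plus strand, 15 exon blocks), had 12.8, 11.003, 12.5, 9.59 and 12.2 CPM in WT mice and 16.97, 18.8, 13.5, 12.1 and 13.5 CPM in zQ175 mice. All but 1 of the zQ175 mice lay above the WT mice. It had 13.4, 12.2 and 12.1 CPM in CK2a'(+/-) mice and 10.6, 13.1, 14.9, 14.9 and 16.3 CPM in zQ175:CK2a'(+/-) mice. In zQ175 against WT mice the log2 fold change was 0.37 (SE 0.14), which did not pass (adjusted p = 0.242 by edgeR). Averaged over the CK2a' backgrounds it was 0.26 (SE 0.11, adjusted p = 0.226). The last exons of Pms2 share 85 bases with Rsph10b on the same strand, which had 40 to 148 reads per library, and 394 bases with Gm42421, which had at most 11.

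Pms1, a MutL protein whose loss slows CAG expansion in cell models (GRCm38 chromosome 1, 53189187 to 53297018, minus strand, 15 exon blocks), had 16.2 ± 0.956 CPM (SD, n = 5) in WT and 16.5 ± 1.12 (n = 5) in zQ175 mice. It had 16.3 ± 2.91 (n = 3) in CK2a'(+/-) and 14.6 ± 3.08 CPM (n = 5) in zQ175:CK2a'(+/-) mice. In this last group replicates 1 and 5 were low, at 10.8 and 12.0 CPM, and the other 3 lay between 15.7 and 17.4. The ratio of Pms1 to Pms2 in RPKM was 1.51 ± 0.207 in WT, 1.22 ± 0.234 in zQ175, 1.41 ± 0.309 in CK2a'(+/-) and 1.14 ± 0.233 in zQ175:CK2a'(+/-) mice. The ranges of these ratios overlapped between the groups.

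Fan1, the nuclease that restrains CAG expansion (GRCm38 chromosome 7, 64346758 to 64374095, minus strand, 12 exon blocks), had 15.9 ± 2.40 CPM (SD, n = 5) in WT, 16.8 ± 2.00 (n = 5) in zQ175, 17.1 ± 3.41 (n = 3) in CK2a'(+/-) and 16.1 ± 3.36 CPM (n = 5) in zQ175:CK2a'(+/-) mice. The group means lay within the SD of each other. The 95% interval of the log2 fold change was -0.24 to 0.40 in zQ175 against WT mice and -0.39 to 0.25 in zQ175:CK2a'(+/-) against zQ175 mice. Pold1, the catalytic subunit of DNA polymerase delta (GRCm38 chromosome 7, 44532746 to 44548849, minus strand, 24 exon blocks), had the fewest reads, 78 to 167 per library, with a counting error of 9.08% to 9.75% of a group's mean count per library. It had 6.30 ± 1.47 CPM in WT and 5.91 ± 0.996 CPM in zQ175 mice, with an interval from -0.50 to 0.32 on the log2 scale. The SD between mice was 23.3% of the mean CPM in WT, 16.8% in zQ175 and 26.9% in zQ175:CK2a'(+/-) mice, above the counting error, and 7.12% in CK2a'(+/-) mice, below their counting error of 9.22%.

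Lig1, the DNA ligase that seals nicks after repair and replication (GRCm38 chromosome 7, 13277283 to 13311433, plus strand, 30 exon blocks), was low in mice lacking a CK2a' allele alone, but the difference did not pass. It had 10.6, 6.87, 11.8, 9.90 and 10.01 CPM in WT mice and 7.37, 6.52 and 6.27 CPM in CK2a'(+/-) mice. WT replicate 2, the mouse highest in Mlh3, fell among the CK2a'(+/-) mice, and the other WT mice lay above them. It had 10.5, 8.17, 10.3, 8.24 and 7.26 CPM in zQ175 mice and 7.54, 9.12, 8.76, 7.75 and 8.77 CPM in zQ175:CK2a'(+/-) mice, all of the latter above the CK2a'(+/-) mice. In CK2a'(+/-) against WT mice the log2 fold change of Lig1 was -0.55 (SE 0.18, 95% interval -0.92 to -0.18), with an adjusted p of 0.999 by edgeR. Against CK2a'(+/-) mice, zQ175:CK2a'(+/-) mice had a log2 fold change of 0.32 (SE 0.18, adjusted p = 0.636), and the interaction of both alleles was 0.46 (SE 0.23, adjusted p = 0.916).

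Oligodendrocyte precursors are dividing cells of the adult striatum, and the summed level of their 3 markers was set against Lig1. Summed, Pdgfra, Cspg4 and Gpr17 had 66.2 to 70.1 CPM in CK2a'(+/-), 76.7 to 85.9 in WT, 71.4 to 81.0 in zQ175 and 68.7 to 80.2 CPM in zQ175:CK2a'(+/-) mice, with all 3 detected in each group. In CK2a'(+/-) against WT mice, Pdgfra had a log2 fold change of -0.30 (SE 0.09, adjusted p = 0.927 by edgeR), Gpr17 -0.25 (SE 0.16) and Cspg4 -0.11 (SE 0.13), and none passed. For zQ175 against WT mice, Pdgfra was at -0.12 (SE 0.08), Cspg4 at -0.02 (SE 0.11) and Gpr17 at 0.10 (SE 0.14), and none passed. Across the 18 libraries, Lig1 and the summed markers had a Pearson's r of 0.753 and a Spearman's rho of 0.709 on the log2 scale. The value was 0.497 after the genotype means were removed and 0.615 without the 2 libraries farthest from the median of the markers, both of them CK2a'(+/-) mice. It was the highest of 9 marker lists set against Lig1, is given as a description, and its part in the difference was not tested. The summed markers of dividing cells stayed between 2.06 and 12.5 CPM in all groups. Their r with Lig1 over the 18 libraries was -0.147, and that of the striatal projection neuron markers was -0.498.

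**Figure D4:**
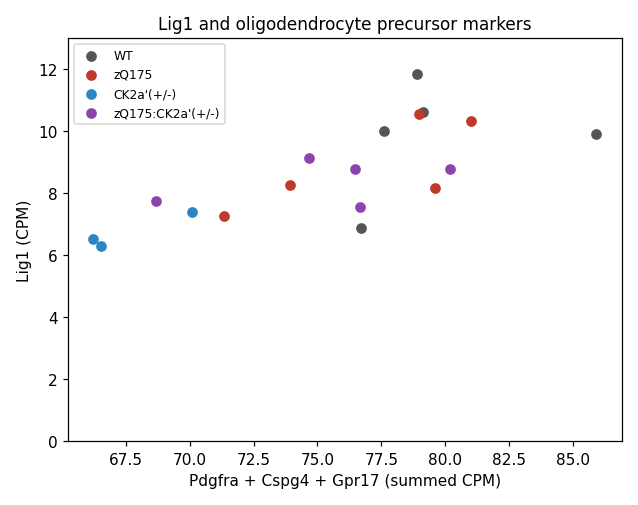
Lig1 in CPM against the summed CPM of the oligodendrocyte precursor markers Pdgfra, Cspg4 and Gpr17 (linear axes), with 1 point per mouse coloured by genotype. The 3 CK2a'(+/-) mice sit at the lower left, at 66.2 to 70.1 CPM of the markers, and across all 18 mice r was 0.753.

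The first 247 bases of exon of Lig1 overlap those of Zswim9 on the opposite strand, 5.79% of its exon length, and Zswim9 had more reads (197 to 419) than Lig1 (94 to 225). If the counting ignored the strand, reads of both genes could not be told apart there. Lig1 and Zswim9 had a Pearson's r of 0.0872 and a Spearman's rho of 0.0836 across the 18 libraries. Zswim9 itself passed in the averaged zQ175 effect, with a log2 fold change of 0.32 (SE 0.10, adjusted p = 0.0858 by edgeR), where Lig1 was at 0.09. Between zQ175:CK2a'(+/-) and CK2a'(+/-) mice Zswim9 was at 0.36 (SE 0.15, adjusted p = 0.431), near the 0.32 of Lig1, and between CK2a'(+/-) and WT mice it was at 0.0035 (SE 0.15), where Lig1 was at -0.55. The part of the shared bases in these values was not tested.

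In zQ175 against WT mice, edgeR called none of the 8 repair genes, where 1.1% of all genes passed. Pms2 was the 1 gene of the 8 with an unadjusted p under 0.05, against 13.9% of all genes, and DESeq2 called 0. Their log2 fold changes ran from -0.14 (Lig1) to 0.37 (Pms2), with 6 genes higher and 2 lower and a median of 0.06, against 0.0042 over all genes tested. Lig1 was at -0.26 without WT replicate 2, -0.070 without WT replicate 3, -0.081 without zQ175 replicate 5 and -0.0044 without the 4 libraries high in Ttr. In CK2a'(+/-) against WT mice edgeR and DESeq2 called 0 of 8 (0.0143% of all genes by edgeR), Lig1 was the 1 gene with an unadjusted p under 0.05 (4.48% of all genes), and the other 7 lay between -0.17 and 0.11. In zQ175:CK2a'(+/-) against CK2a'(+/-) mice both tools also called 0 of 8 (0.593% of all genes by edgeR), with Mlh3 the 1 gene under an unadjusted p of 0.05 (9.19% of all genes).

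The comparison of zQ175:CK2a'(+/-) with zQ175 mice asks whether the loss of a CK2a' allele alters repair genes in HD mice. edgeR and DESeq2 called 0 of 8, as they did for nearly all genes (0.0143% by edgeR), and 0 of the 8 had an unadjusted p under 0.05, against 6.27% of all genes. The log2 fold changes ran from -0.18 for Pms1 (SE 0.13) to 0.14 for Mlh3 (SE 0.14). Pms1 was at -0.080 without zQ175:CK2a'(+/-) replicate 1 and at -0.11 without replicate 5 of that group. Mlh3 was at 0.057 without zQ175 replicate 1 and at 0.21 without zQ175:CK2a'(+/-) replicate 5. The 95% intervals together spanned -0.45 to 0.54, so larger changes of any of the 8 lay outside them. Against WT mice, zQ175:CK2a'(+/-) mice had 0 of 8 called by both tools (0.0143% of all genes by edgeR), with Mlh3 at 0.33 (SE 0.14, adjusted p = 0.488) the 1 gene under an unadjusted p of 0.05, against 9.13% of all genes. The interaction called 0 of 8 in both tools (0.00478% of all genes by edgeR), with 0 unadjusted p-values under 0.05 (5.39% of all genes). zQ175 against WT, zQ175:CK2a'(+/-) against WT and CK2a'(+/-) against WT share the WT mice.

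**Figure D5:**
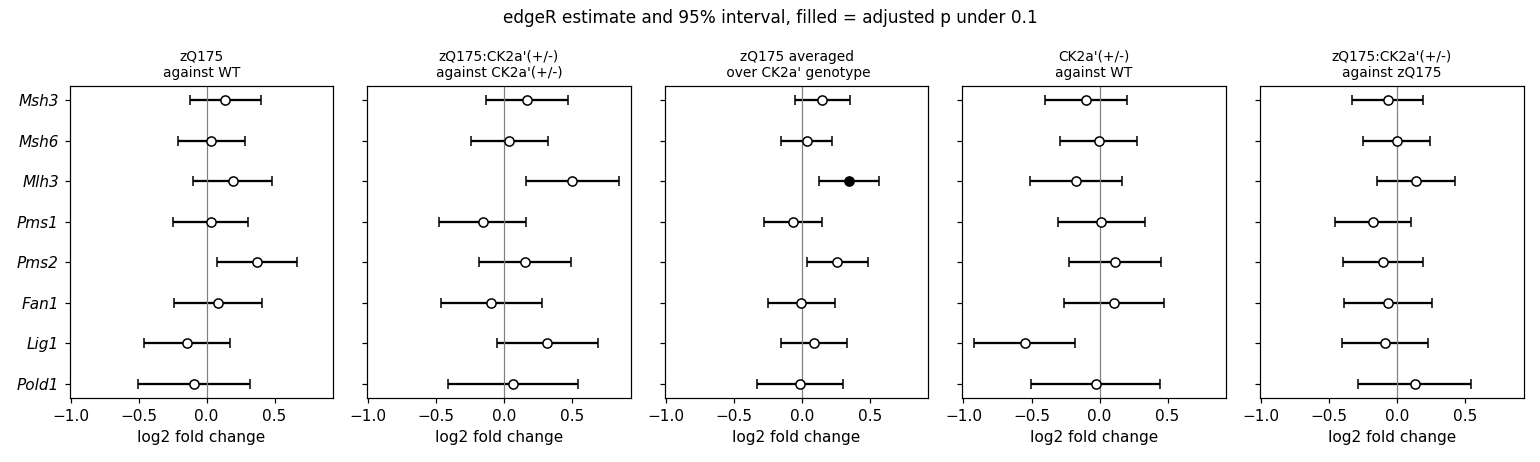
Log2 fold change of each repair gene with its 95% interval (edgeR) in 5 comparisons of genotypes. The filled point has an adjusted p under 0.1, which is Mlh3 in the zQ175 effect averaged over CK2a' genotype (0.35), and every other point is open.

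Summed over the 8 genes, the level was 145 ± 12.2 CPM (SD, n = 5) in WT, 156 ± 9.81 (n = 5) in zQ175, 138 ± 2.11 (n = 3) in CK2a'(+/-) and 154 ± 5.48 CPM (n = 5) in zQ175:CK2a'(+/-) mice. The 8 genes did not vary as a block. Over the 28 pairs among them, the median Pearson's r of log2 CPM across the 18 libraries was 0.0122, with a range from -0.54 (Fan1 and Pms1) to 0.50 (Fan1 and Msh6), and 15 pairs were above 0. The points of every pair share library and depth.

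The genes tested that were most like each repair gene in pattern were ranked by Pearson's r of log2 CPM over the 18 libraries. For Msh3 the first was Fbxo11 (r = 0.846), the neighbour of Msh6 whose exons share 34 bases with it, and the second was Tra2b (0.828). Zfyve9 (0.833) came first for Fan1, Fam69c (0.854) for Msh6 and Il4ra (0.812) for Lig1. The first for Mlh3 was C730045M19Rik (0.883), for Pms1 AC132481.1 (0.882), for Pms2 Gm38359 (0.838) and for Pold1 Gm37860 (0.782), and these 4 had a mean of at most 1.69 CPM. With 20914 genes ranked over 18 mice, the highest r is a choice among many and is given as a description.

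Repair genes around the 8 were described from 5 lists of 46 genes, of which 43 were tested. They held the excision and resynthesis factors of mismatch repair, the MutS homologues Msh4 and Msh5, base excision repair, crosslink and structure-specific nucleases, and genes at other human onset loci. In zQ175 against WT mice, 1 of the 43 passed as lower and 0 as higher, against 0.712% and 0.387% of all genes, with a median log2 fold change of -0.08. In the zQ175 effect averaged over CK2a' genotype, 1 passed as higher and 0 as lower, against 2.11% and 2.78% of all genes, with a median of -0.0090 beside 0.0057 over all genes. No gene of the lists passed in edgeR in the other 5 comparisons, in which between 0 and 4 of the 43 had an unadjusted p under 0.05, against 4.48% to 9.19% of all genes, and DESeq2 also called 0.

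The gene that fell was Ogg1, the glycosylase that removes oxidised guanine and has been linked to CAG expansion in mice. It had 2.04, 2.01, 2.38, 3.33 and 2.32 CPM in WT mice and 1.03, 0.869, 0.861, 1.12 and 1.40 CPM in zQ175 mice, without overlap, as did 2.44% of all genes. Its log2 fold change was -1.19 (SE 0.28, adjusted p = 0.0745 by edgeR). It had 1.62, 1.88 and 1.87 CPM in CK2a'(+/-) mice and 1.24, 2.94, 2.02, 3.13 and 2.28 CPM in zQ175:CK2a'(+/-) mice, where replicate 1 lay among the zQ175 mice. In zQ175:CK2a'(+/-) against zQ175 mice the log2 fold change was 1.13 (SE 0.29), which did not pass (adjusted p = 0.419 by edgeR). Both comparisons share the zQ175 mice. Between the mice lacking a CK2a' allele the direction was opposite, with means of 1.79 CPM in CK2a'(+/-) and 2.32 CPM in zQ175:CK2a'(+/-) mice. Averaged over CK2a' genotype, the zQ175 effect on Ogg1 was -0.41 on the log2 scale and did not pass. It was called in 0 of the 18 fits that left out 1 library. Ogg1 had only 14 to 75 reads per library, 10.6% of its exon length overlaps Camk1 on the opposite strand with 266 to 697 reads, and its call was lost in several alternatives. Leaving out 1 library lost it in 7 of 18 fits (WT replicate 1, 3 or 4, or zQ175 replicate 1, 2, 3 or 5), with adjusted p-values up to 0.167, and a log2 fold change of -1.31 to -1.04 over the 18 fits. Without the 4 libraries high in Ttr the log2 fold change was -1.27 (SE 0.34, adjusted p = 0.496), in a fit that called 1 of 21312 genes.

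The gene that rose in the averaged zQ175 effect was Slx4, the scaffold of structure-specific nucleases. It had 30.7 ± 2.65 CPM (SD, n = 5) in WT, 33.0 ± 2.22 (n = 5) in zQ175, 28.4 ± 2.86 (n = 3) in CK2a'(+/-) and 35.3 ± 1.21 CPM (n = 5) in zQ175:CK2a'(+/-) mice. Its log2 fold change was 0.21 (SE 0.06, adjusted p = 0.0853 by edgeR), and it was called in 3 of the 18 fits that left out 1 library (WT replicate 3, zQ175 replicate 4 or CK2a'(+/-) replicate 2), and the other fits gave adjusted p-values up to 0.287. The log2 fold change lay between 0.17 and 0.25 over the 18 fits. The call was not kept without the 4 libraries high in Ttr, where the log2 fold change was 0.25 (SE 0.08, adjusted p = 0.209) and 126 of 21312 genes were called.

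The partners of these enzymes in resynthesis did not pass in any comparison. In zQ175 against WT mice, Pcna, the sliding clamp, had a log2 fold change of 0.05 (SE 0.17), and the polymerase delta subunits Pold2 and Pold3 had -0.32 (SE 0.21) and -0.02 (SE 0.12). Polb, the gap-filling polymerase of base excision repair, had -0.04 (SE 0.09) and Fen1, the flap nuclease, -0.31 (SE 0.18). Rrm2b, a ribonucleotide reductase subunit at an onset locus in people, had 0.20 (SE 0.11). Leaving out 1 library gave -0.48 (without WT replicate 2) to -0.18 (without WT replicate 5) for Pold2 and -0.40 (without zQ175 replicate 1) to -0.20 (without zQ175 replicate 4) for Fen1, and Rrm2b was at 0.12 without the 4 libraries high in Ttr. Exo1, the exonuclease of mismatch repair, had 0 to 24 reads per library and a log2 fold change of -0.44 (SE 0.66) in zQ175 against WT mice. It had 0.354, 0.0875 and 0.0667 CPM in CK2a'(+/-) mice and 0.507, 0.502, 0.551, 0.955 and 1.08 CPM in zQ175:CK2a'(+/-) mice, without overlap, as did 8.34% of all genes. The log2 fold change between these groups was 2.03 (SE 0.86, adjusted p = 0.455 by edgeR), which did not pass, and the CK2a'(+/-) libraries had 1 to 7 reads.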

How the data were processed

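Striatal RNA from 18 mice was sequenced from stranded total RNA libraries (Takara), all pooled on a single lane. Per the labels and the methods text, the authors used Trimmomatic for trimming, HISAT2 2.1.0 for alignment to GRCm38 and Subread 1.6.2 for counting reads per gene, after duplicates and low-quality mappings were dropped. The deposited values are raw counts and, as other values, the exon length of each gene. Whether counting used the strand is not given in the sources used here.

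Of the 55421 Ensembl identifiers, 55154 matched a gene symbol. Counts were tested with edgeR 4.0.16 (quasi-likelihood, TMM, filterByExpr) in R 4.3.3. The fit took in the 18 libraries together, with no term but genotype. Genes passed at a Benjamini-Hochberg adjusted p under 0.1 over the 20914 genes tested. Every adjusted p comes from edgeR unless DESeq2 (1.42.0) is given as the tool. SE was computed here as the size of the edgeR log2 fold change over the square root of its F statistic. Intervals were built from that SE. The prior count of log2 CPM was 2. The 7 comparisons were 5 pairs of genotypes, the averaged zQ175 effect and the interaction. Alternatives were DESeq2, its size factors, other filters, the replicate number as a block, Xist (log2 of CPM plus 0.5) as covariate, a robust fit, only the groups compared, FDR 0.05 and leaving out each library. Leaving out the 4 libraries high in Ttr was added after the data were seen. The test was tried on simulated data.

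Named were the 8 genes, all list genes that passed, a fixed set of partners (Pcna, Exo1, Pold2, Pold3, Fen1, Polb, Ogg1 and Rrm2b), genes most alike in pattern and genes overlapping in exons. Some genes of the lists are not reported here and were left out of the counts. The genes and lists were chosen with earlier results of these data known. Total counts were 13612381 to 22702547. Intervals of single counts cover counting error only, and the labels give no sex, batch or pairing.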

Additional observations from a re-analysis of the deposited data

How the results depend on the processing

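The call of Mlh3 in the averaged zQ175 effect kept its side of the threshold under DESeq2, its size factors, other count filters, the Xist covariate and the robust fit. At FDR 0.05 the count of the 8 genes called was 0, and without the 4 libraries high in Ttr it was 0 as well. Leaving out each library gave 0 to 1 calls among the 8 genes there, 0 to 1 among the list genes, and 0 to 1 among the list genes in zQ175 against WT mice. With only the 2 groups compared, 1 of the 8 (Mlh3) was called in zQ175:CK2a'(+/-) against CK2a'(+/-) mice, among 461 of 18974 genes. For the list genes in zQ175 against WT mice, DESeq2 called 1 (Ogg1). No list gene was called with no filter (451 of 37580 of all genes called), the Xist covariate (156 of 20914) or only the groups compared (0 of 18529). The same held at FDR 0.05 (51 of 20914) and without the libraries high in Ttr (1 of 21312). In the averaged effect, no filter, FDR 0.05 and leaving out the libraries high in Ttr each called 0 list genes. Of all genes, these fits called 997 of 37580, 469 of 20914 and 126 of 21312. The cause of these changes was not tested. Counting error was 14.5% to 23.1% of a group's mean count for Ogg1 and 28.6% to 54.8% for Exo1, and for Pold1 it was 9.08% to 9.75%.

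Same-numbered mice showed little shared deviation, although this cannot show that they were unpaired. Of 24 same-numbered pairs, 2 had deviations correlated over 0.1 (range -0.14 to 0.12), and 1 of 18 libraries correlated best with its own number. With the replicate block, 0 of the 8 genes (Mlh3, adjusted p = 0.101) and 0 list genes passed in the averaged effect, 0 list genes passed in zQ175 against WT mice, and the averaged fold changes of Fan1 and Pold1 turned to 0.030 and 0.012.

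Other changes of direction were all of log2 fold changes near 0 that had not passed. With Xist as covariate, Msh6 was -0.0034 in zQ175 against WT and 0.051 in zQ175:CK2a'(+/-) against zQ175 mice, and Fan1 was 0.0059 in the averaged effect. With DESeq2, Msh6 was 0.00013 in CK2a'(+/-) against WT mice and -0.0044 in the interaction. Without a filter, Msh6 was 0.0028 in zQ175:CK2a'(+/-) against zQ175 mice. Without the 4 libraries high in Ttr, Fan1 was -0.0052 and Pcna -0.057 in zQ175 against WT, Fan1 -0.13 in zQ175:CK2a'(+/-) against WT, Fan1 -0.051 and Msh6 0.023 in CK2a'(+/-) against WT mice, and Msh6 -0.024 in the interaction.

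Leaving out 1 library at a time moved some values across 0. In zQ175 against WT mice Msh6 ranged from -0.057 to 0.075, Pms1 from -0.013 to 0.064, Pcna from -0.064 to 0.14, Pold3 from -0.063 to 0.060 and Polb from -0.099 to 0.0040. In zQ175:CK2a'(+/-) against CK2a'(+/-) mice Fan1 ranged from -0.25 to 0.029, Msh6 from -0.054 to 0.10 and Pold1 from -0.11 to 0.16. In the averaged effect Fan1 ranged from -0.083 to 0.056, Msh6 from -0.010 to 0.067, Pms1 from -0.11 to 0.011 and Pold1 from -0.10 to 0.034. For zQ175:CK2a'(+/-) against WT mice Fan1 ranged from -0.057 to 0.14, Msh6 from -0.045 to 0.078 and Pold1 from -0.14 to 0.13. In CK2a'(+/-) against WT mice Msh6 ranged from -0.070 to 0.085, Pms1 from -0.14 to 0.096 and Pold1 from -0.15 to 0.068. For zQ175:CK2a'(+/-) against zQ175 mice Fan1 ranged from -0.13 to 0.053, Msh3 from -0.13 to 0.049, Msh6 from -0.075 to 0.089 and Pold1 from -0.045 to 0.22. In the interaction Msh3 ranged from -0.057 to 0.14, Msh6 from -0.088 to 0.094 and Pold1 from -0.017 to 0.27.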

Other observations

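The levels of Mlh3 and Lig1 ran against each other from mouse to mouse within genotypes. Across the 18 libraries, after the genotype means were removed, the log2 CPM of Mlh3 and Lig1 had a Pearson's r of -0.82 and a Spearman's rho of -0.81, and r was -0.65 without WT replicate 2 and zQ175 replicate 1, the 2 libraries farthest from the median of Mlh3. With the genotype means left in, r was -0.34. WT replicate 2 was the highest WT library in Mlh3 (41.4 CPM) and the lowest in Lig1 (6.87 CPM), and zQ175 replicate 1 was the lowest zQ175 library in Mlh3 (25.96 CPM) and the highest in Lig1 (10.5 CPM). The pair was chosen from 28 after the values were seen, its points share library and depth, and no test was made.

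In 4 of the 4 genotypes, the mouse with the lowest Mlh3 had Xist under 100 CPM. In WT and in CK2a'(+/-) mice this was replicate 1, which was also high in Ttr. Xist was under 100 CPM in 2 of 3 CK2a'(+/-) and 3 of 5 zQ175 libraries. Over all groups, 11 libraries had at least 990 CPM of Xist and 7 had at most 47.0 CPM, which was that of zQ175 replicate 3. In zQ175:CK2a'(+/-) mice, the library low in Xist had 29.5 CPM of Mlh3 and the others 36.3 to 40.8. In zQ175 mice the libraries low in Xist had 25.96 to 36.6 CPM of Mlh3 and the others 36.2 to 37.0. This was noticed in the data, and the difference was not tested.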
